A study of Mus musculus with 12 samples.

Results

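Gpr15 and 8 chemokine receptors, Ccr2, Ccr4, Ccr6, Ccr7, Ccr8, Ccr9, Cxcr3 and Cxcr4, were followed by their RNA in regulatory T cells (Treg) of the mouse spleen. They were found by name in the gene tables and are 9 of the 41457 genes counted there. The cells were splenic RFP+CD4+ T cells sorted by flow cytometry. CD18wt mice carried wild-type CD18, the β2-integrin chain encoded by Itgb2. In CD18Foxp3 mice both copies of exon 3 of Itgb2 were flanked by loxP sites, so that Cre deleted them in cells that express Foxp3. Both genotypes carried Foxp3Cre and an RFP reporter that marks cells in which Cre has acted, and the ages of the mice for this experiment were not given in the sources used here. The sorted cells were kept overnight in 5 U/mL recombinant human IL-2 (unstimulated), or in the same IL-2 with agonistic antibodies to CD3 at 1 μg/mL and to CD28 at 2 μg/mL (stimulated). Each of the 4 groups had 3 libraries, 12 in all, made from poly(A) RNA.

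Chemokine receptors are G protein-coupled receptors that turn a gradient of a secreted chemokine into directed movement. They couple mainly to inhibitory G proteins, are switched off by G protein-coupled receptor kinases and arrestins, and often gain affinity for their ligands by sulfation of tyrosines. In Treg they set where the cell goes. CCR7 leads to the T cell zones of lymphoid organs, CXCR4 to CXCL12 in stroma and bone marrow, CXCR3 to sites of interferon-driven inflammation, CCR4 and CCR8 to skin and other tissues, CCR6 to CCL20 at barrier surfaces, CCR9 to CCL25 in the small intestine, and CCR2 to CCL2 at sites of inflammation. GPR15 is a related receptor that guides T cells, Treg among them, to the colon and the skin.

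The genes were chosen by a rule that uses their levels in the 4 groups, and Gpr15 with its difference between the genotypes already known. Their differences are therefore given as descriptions, with a standard error (SE) and without p-values. A gene is called past the threshold when edgeR's quasi-likelihood test put it at a 1.5-fold difference or more with an adjusted p no higher than 0.01 over all genes tested. In bulk RNA, fewer cells that carry a transcript and less of it in each cell cannot be told apart.

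The libraries held between 10665174 and 19005482 exon reads. Itgb2 itself was at 465, 431 and 387 TPM (a level scaled by exon length and by library) in unstimulated CD18wt libraries and at 229, 257 and 234 TPM in unstimulated CD18Foxp3 libraries. In stimulated Treg it was at 331, 329 and 330 TPM in CD18wt libraries and at 131, 202 and 183 TPM in CD18Foxp3 libraries. The log2 fold change of Itgb2 between the genotypes was -0.85 (SE 0.091) in unstimulated Treg, past the threshold. In stimulated Treg it was -0.94 (SE 0.17) and did not pass, though the libraries did not overlap. The unstimulated CD18wt library 3 was the shallowest and stood apart from the others of its group, with Cxcr4, Ccr8, Rgs1, Rgs2, Cd69 and Nr4a1 at the bottom of the group and 3.32% of gene reads in introns against 4.81% and 5.02%. Where leaving it out changed a call or moved a log2 fold change of the 9 receptors by more than 0.1 on the log2 scale, the value without it is given as well. Of the Treg markers, Foxp3 ranged from 73.4 to 207 TPM over all libraries. Foxp3, Ctla4 and Cd3e overlapped between the genotypes in both cultures. Il2ra was lower without overlap in unstimulated CD18Foxp3 Treg (ratio of mean TPM 0.794) and higher in stimulated CD18Foxp3 Treg (1.4). In stimulated CD18Foxp3 Treg Ikzf2 was higher (1.36) and Cd4 lower (0.876), both without overlap. None of these passed the threshold between the genotypes. Of the markers of other cells, 6 of B cells summed to 9.07 to 30.8 TPM over all libraries, 5 of cytotoxic lymphocytes to 12.9 to 35.9 TPM, 7 of myeloid cells to 0.666 to 16.1 TPM, 5 of dendritic cells to 0.131 to 2.98 TPM and 4 of erythroid cells to 0.0813 to 30.9 TPM. Siglech of plasmacytoid dendritic cells and Ncr1 of natural killer cells had no read in any library. Between the genotypes in unstimulated Treg, Klrb1c of natural killer cells was at 3.73, 4.16 and 5.32 TPM in CD18wt and lower without overlap, at 2.37, 1.58 and 2.71 TPM, in CD18Foxp3 libraries. Zbtb46 of dendritic cells was at 0.760, 0.523 and 0.0289 TPM and higher without overlap, at 0.791, 0.795 and 1.10 TPM. Pax5 of B cells was lower without overlap (ratio of mean TPM 0.231). Cd8a and Cd8b1 of the cytotoxic list had ratios of 1.11 and 1.09 and Klrd1 of 0.445, all with overlap. Clec9a and Itgax of the dendritic cell list had no read in unstimulated CD18Foxp3 libraries. The sums of the B cell, cytotoxic and dendritic cell markers overlapped between the genotypes in unstimulated Treg. The part of these markers in the results was not tested.

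Gpr15 (ENSMUSG00000047293) is a gene of 1 exon on the minus strand of chromosome 16 of GRCm38, from 58717433 to 58719070. Ccr4 (ENSMUSG00000047898, chromosome 9, 114490316 to 114504916, minus strand) and Ccr8 (ENSMUSG00000042262, chromosome 9, 120092114 to 120094906, plus strand) lie apart on another chromosome. The bases before their start sites are shown because Gpr15 was the receptor past the threshold between the genotypes, and Ccr4 and Ccr8 those past it in the direction of a rise on stimulation. RefSeq promoter windows (GRCm38.p6, 250 bases before to 50 bases after a gene's start) were found for 8 of the 9 receptors, with none for Ccr7. The RefSeq starts of Gpr15, Ccr4 and Ccr8 lie inside the annotated genes, downstream of their annotated starts. The stretches printed are the longest unbroken parts of those windows in no annotated exon of the gene, chr16:58719071-58719122 on the minus strand, chr9:114496563-114496794 on the minus strand and chr9:120091883-120092113 on the plus strand. Capitals mark matches to a motif.
Gpr15: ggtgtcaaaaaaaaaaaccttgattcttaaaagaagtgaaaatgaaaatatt
Ccr4: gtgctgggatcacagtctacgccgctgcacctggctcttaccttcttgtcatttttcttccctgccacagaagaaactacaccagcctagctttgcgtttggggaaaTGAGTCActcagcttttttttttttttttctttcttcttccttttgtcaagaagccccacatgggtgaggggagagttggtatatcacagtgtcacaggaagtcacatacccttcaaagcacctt
Ccr8: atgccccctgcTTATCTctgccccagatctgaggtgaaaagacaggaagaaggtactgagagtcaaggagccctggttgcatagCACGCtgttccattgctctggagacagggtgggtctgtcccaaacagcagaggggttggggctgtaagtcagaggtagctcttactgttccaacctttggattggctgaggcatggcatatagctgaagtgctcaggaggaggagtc

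The 5 motifs, picked with the levels already known and searched on both strands, were TGANTCA for AP-1, TGTGGT for RUNX factors, AGATAA for GATA factors, GCGTG for AHR-ARNT and GTAAACA for FOXO factors. In the stretches above the capitals are an AP-1 match that begins 143 bases before the RefSeq start of Ccr4, and a GATA and an AHR-ARNT match 239 and 166 bases before that of Ccr8. The stretch of Gpr15 held no whole match, and an AP-1 match that begins 199 bases before its RefSeq start ran into the annotated exon and is not shown. Its window also held 2 RUNX matches, 85 and 79 bases before that start, which lay outside the printed stretch. AP-1 letters occurred in the windows of 2 of the 8 receptors and in 7.81% of the 32851 RefSeq windows. RUNX, GATA and AHR-ARNT letters each occurred in those of 3 of the 8, and in 16.8%, 11.2% and 32.4% of all windows, and FOXO letters in those of 0 of the 8 and in 3.65%. No matches overlapped each other. Such matches describe letters only.

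Gpr15 was the receptor with the widest gap between the genotypes. The unstimulated CD18wt libraries gave 234, 230 and 82 reads of Gpr15, at 22.5, 20.8 and 12.3 TPM, and the CD18Foxp3 libraries gave 668, 600 and 881 reads, at 57.2, 63.6 and 86.5 TPM. All 3 CD18Foxp3 libraries lay above all 3 CD18wt libraries, with means of 69.1 ± 15.4 TPM and 18.6 ± 5.47 TPM (SD, n = 3). The log2 fold change was 1.86 (SE 0.20), a 3.62-fold higher level, and 94.6% of the reads of Gpr15 were placed uniquely. It was the only one of the 9 receptors past the threshold in this comparison, where 0.135% of the 11829 genes tested were and 0.0507% were in the direction of a higher level in CD18Foxp3 Treg. Without the CD18wt library 3 the log2 fold change of Gpr15 was 1.68 and stayed past the threshold, and without any other single library it was 1.69 to 2.00 and did not pass. It did not pass with limma on log2(TPM + 1) or log2(TPM + 0.1), at 1.86 and 1.91, or with all 12 libraries in 1 fit, at 1.86.

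The gap in Gpr15 was also present in stimulated Treg. The CD18wt libraries held 46.7, 30.3 and 18.8 TPM of Gpr15 and the CD18Foxp3 libraries 116, 89.6 and 176 TPM, again without overlap. The log2 fold change was 2.01 (SE 0.34) and did not pass the threshold, as with every gene of this comparison, 0.0% of the 11930 tested by edgeR. At an unadjusted p under 0.05 edgeR counted 583 of these genes, and DESeq2 called 22, Gpr15 among them. The difference between the genotype effects in stimulated and unstimulated Treg was 0.14 on the log2 scale (SE 0.46), and 0.32 without the unstimulated CD18wt library 3.

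Stimulation itself left Gpr15 with overlapping libraries in CD18wt Treg, at a log2 fold change of 0.39 (SE 0.32), or 0.20 without unstimulated library 3. In CD18Foxp3 Treg the stimulated libraries lay above the unstimulated ones in TPM, as was so of 47.9% of all genes tested there. The log2 fold change of Gpr15 was 0.52 (SE 0.24) and did not pass the threshold. Among markers of other cells, the summed level of 4 plasma cell markers moved with genotype in stimulated Treg, at 19.4 to 32.8 TPM in CD18wt and 36.8 to 42.5 TPM in CD18Foxp3 libraries. Prdm1, which effector Treg also express, made up most of it, with means of 22.9 and 35.5 TPM. The part of these markers in the result was not tested.

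**Figure D1:**
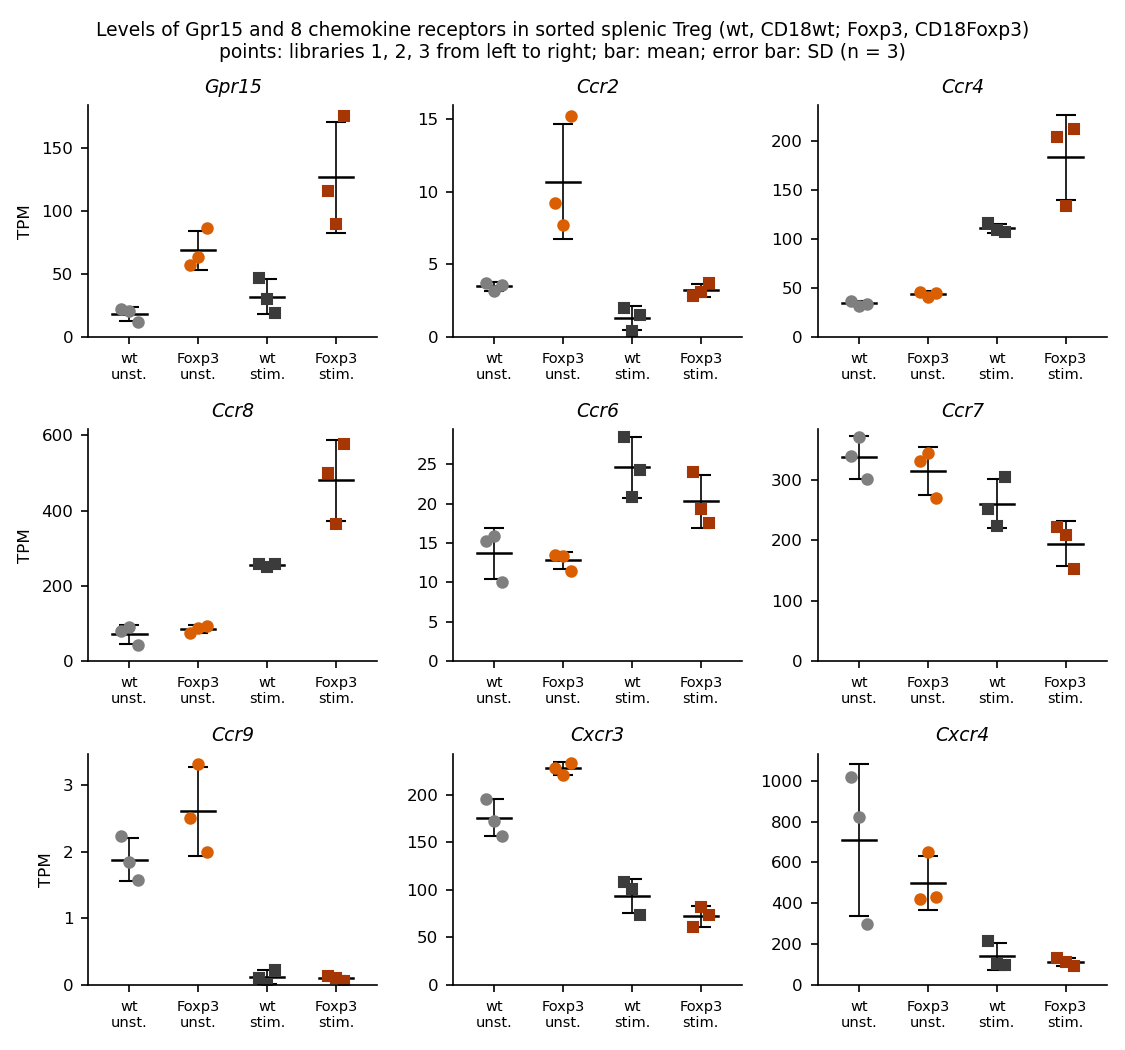
TPM of the 9 receptors in each library (points, libraries 1 to 3 from left to right) for the 4 groups on the horizontal axis, with the mean (bar) and SD (error bar, n = 3) and a vertical scale of its own for each gene. Gpr15 was at 57.2 TPM or above in all CD18Foxp3 libraries and at 46.7 TPM or below in all CD18wt libraries, while Ccr9 was near 0 in all stimulated libraries.

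Ccr2 (ENSMUSG00000049103, chromosome 9, 124101950 to 124113557, plus strand), the receptor of CCL2, differed between the genotypes at a much lower level than Gpr15. Its unstimulated CD18wt libraries held 160, 144 and 98 reads, at 3.73, 3.16 and 3.57 TPM. The CD18Foxp3 libraries held 446, 300 and 638 reads, at 9.25, 7.70 and 15.2 TPM. The groups did not overlap, and the log2 fold change of 1.59 (SE 0.23) missed the threshold with edgeR but passed it with DESeq2 and with an adjusted p of 0.05. Of the reads of Ccr2, 97.1% were placed uniquely. CCR2 is best known on monocytes. The 7 myeloid markers summed to 16.1, 5.00 and 5.93 TPM in unstimulated CD18wt libraries and to 2.82, 7.80 and 2.90 TPM in CD18Foxp3 libraries, with Lyz2 as the largest part of the mean. Itgam, also among them, moved the same way as Ccr2, from 3, 12 and 2 reads to 14, 19 and 30 reads, without overlap in TPM, at a log2 fold change of 1.77 (SE 0.68, adjusted p = 0.402, edgeR). Lyz2 went the other way, at -1.68 (SE 0.79, adjusted p = 0.56, edgeR), with overlap in TPM. The remaining myeloid markers had too few reads to be tested. The part of these markers in the result was not tested.

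In stimulated Treg the level of Ccr2 was 2.00, 0.438 and 1.49 TPM in CD18wt libraries and 2.85, 3.09 and 3.73 TPM in CD18Foxp3 libraries. All CD18Foxp3 libraries again lay above all CD18wt libraries, with a log2 fold change of 1.36 (SE 0.44) that did not pass the threshold. The 7 myeloid markers summed to 2.34, 1.77 and 0.666 TPM in these CD18wt libraries. In the CD18Foxp3 libraries they summed to 2.03, 2.6 and 2.18 TPM, with overlap. Fcgr3, among them, had 4, 0 and 2 reads and 9, 10 and 7 reads in the same libraries, too few to be tested. The part of these markers in the result was not tested. On stimulation Ccr2 fell in both genotypes, by 1.86 (SE 0.42) on the log2 scale in CD18wt Treg and by 2.09 (SE 0.25) in CD18Foxp3 Treg. In CD18wt Treg the call was lost without unstimulated library 1 (log2 fold change -1.83) and with limma on log2(TPM + 1) (-1.02).

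Ccr4 and Ccr8, the receptors of CCL17 and CCL22 and of CCL1 and CCL8, were the receptors past the threshold in the direction of a rise on stimulation. Ccr4 was at 37.2, 31.9 and 33.4 TPM in unstimulated CD18wt libraries and at 116, 109 and 107 TPM in stimulated ones. In CD18Foxp3 Treg it was at 46.1, 41.1 and 44.6 TPM before and 204, 134 and 212 TPM after stimulation. The stimulated libraries lay clear of the unstimulated ones in both genotypes, with log2 fold changes of 1.29 (SE 0.13) and 1.70 (SE 0.18), both past the threshold.

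Ccr8 was at 79.3, 90.9 and 41.5 TPM in unstimulated CD18wt libraries, the last of these in the shallow library 3, and at 259, 249 and 259 TPM in stimulated ones. In CD18Foxp3 Treg it was at 73.2, 87.4 and 93.4 TPM unstimulated and at 501, 363 and 576 TPM stimulated. The log2 fold changes on stimulation were 1.46 (SE 0.21) and 2.14 (SE 0.19), both past the threshold, and without CD18wt library 3 the first was 1.23. The stimulated CD18Foxp3 libraries held more Ccr8 than any other group, and Ccr8 was there the highest of the 9 receptors.

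Between the genotypes, Ccr4 and Ccr8 of stimulated Treg had log2 fold changes of 0.74 (SE 0.19) and 0.92 (SE 0.19). The libraries of the genotypes did not overlap for either gene, and neither passed the threshold with edgeR, while DESeq2 called Ccr8. The summed level of 5 markers of activated T cells was higher in the same CD18Foxp3 libraries, at 1600, 1640 and 1970 TPM in CD18wt and 2020, 2070 and 2320 TPM in CD18Foxp3 libraries. Tnfrsf9 was the largest part of it, with means of 870 and 1340 TPM, while 3 of the 5 had log2 fold changes below 0. Il2ra, a Treg marker that also rises with activation, had means of 980 and 1370 TPM. The part of these markers in the result was not tested. In unstimulated Treg the difference was 0.34 (SE 0.10) for Ccr4, without overlap, and 0.24 (SE 0.23) for Ccr8, with overlap, and for Ccr8 it was 0 without CD18wt library 3. The genotype difference of Ccr8 was larger in stimulated than in unstimulated Treg by 0.68 (SE 0.30) on the log2 scale, and that of Ccr4 by 0.40 (SE 0.23), neither past the threshold, and that of Ccr8 was 0.91 without CD18wt library 3.

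Ccr6 (ENSMUSG00000040899, chromosome 17, 8236043 to 8257141, plus strand), the receptor of CCL20, did not pass the threshold on counts in any comparison. It was at 15.3, 15.9 and 9.98 TPM in unstimulated and 28.5, 20.9 and 24.3 TPM in stimulated CD18wt libraries. In CD18Foxp3 libraries it was at 13.5, 13.3 and 11.5 TPM and at 24.0, 19.3 and 17.6 TPM. The levels did not overlap between cultures, but the scale bears on that gap: relative to TMM-normalized counts, TPM moved the median of all genes on stimulation from 0.024 to 0.358 (log2) in CD18wt and from 0.015 to 0.310 in CD18Foxp3 Treg. On counts the log2 fold changes of Ccr6 were 0.44 (SE 0.22), or 0.29 without CD18wt library 3, and 0.31 (SE 0.19), and the threshold was passed only with limma on TPM. The genotypes overlapped in both cultures, at a log2 fold change of -0.13 in unstimulated Treg, or -0.27 without library 3. The difference in response between the genotypes was -0.14, and 0.01 without it.

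Ccr7 (ENSMUSG00000037944, chromosome 11, 99144196 to 99155077, minus strand), the receptor of CCL19 and CCL21, remained among the most abundant of the 9. It was at 340, 371 and 301 TPM in unstimulated and at 252, 224 and 304 TPM in stimulated CD18wt libraries. The CD18Foxp3 libraries were at 331, 345 and 270 TPM unstimulated and at 221, 209 and 152 TPM stimulated. On counts Ccr7 fell on stimulation by 0.78 (SE 0.13) on the log2 scale in CD18wt Treg and by 1.07 (SE 0.17) in CD18Foxp3 Treg, while in TPM the CD18wt libraries overlapped and limma on log2(TPM + 1) gave -0.38 there without passing. The stimulated CD18Foxp3 libraries lay below the stimulated CD18wt libraries, with a log2 fold change of -0.40 (SE 0.17) that did not pass the threshold.

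Ccr9 (ENSMUSG00000029530, chromosome 9, 123678439 to 123784330, plus strand), the receptor of CCL25, was the lowest of the 9 in every group and lost most of its exon reads on stimulation. Unstimulated CD18wt libraries held 145, 127 and 66 exon reads of Ccr9 and stimulated ones 4, 1 and 12. Unstimulated CD18Foxp3 libraries held 184, 196 and 127 reads and stimulated ones 9, 6 and 3. Ccr9 fell by 4.44 (SE 0.58) on the log2 scale in CD18wt Treg and fell by 5.01 (SE 0.38) in CD18Foxp3 Treg. Without stimulated CD18wt library 3, which held the 12 reads, the first was -5.47. With limma on log2(TPM + 1) they were -1.37 and -1.70, both past the threshold. Intron reads of Ccr9 did not fall with the exon reads. They were 18, 25 and 6 in unstimulated and 27, 13 and 27 in stimulated CD18wt libraries. In CD18Foxp3 libraries they were 27, 22 and 13 and then 30, 30 and 27. The intron reads exceeded the exon reads in every stimulated library. The annotated gene holds 6 transcripts, and which of them the intron reads came from was not tested. In unstimulated Treg the genotypes overlapped, at a log2 fold change of 0.45 (SE 0.24). In stimulated Treg the gene had too few reads to be tested between the genotypes. The TPM of Ccr9 is set by an annotated exon length of 10260 bases, and that of Ccr2 by 6760 bases, so that their levels depend on which transcripts the cells make.

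Cxcr3 (ENSMUSG00000050232, chromosome X, 101731535 to 101734269, minus strand), the receptor of CXCL9 and CXCL10, was at 196, 173 and 157 TPM in unstimulated CD18wt libraries and at 228, 221 and 234 TPM in unstimulated CD18Foxp3 libraries. The CD18Foxp3 libraries were higher without overlap, by 0.35 (SE 0.086) on the log2 scale, which is under a fold of 1.5. After stimulation the levels were 108, 101 and 73.8 TPM and 60.6, 81.7 and 74.0 TPM, and the genotypes overlapped. Cxcr3 fell on stimulation by 1.29 (SE 0.17) in CD18wt and by 2.03 (SE 0.12) in CD18Foxp3 Treg, both past the threshold. The fall was larger in CD18Foxp3 Treg by 0.74 (SE 0.22) on the log2 scale, a difference that did not pass the threshold in the test of the interaction. No gene did, 0.0% of the 12636 tested by edgeR, with 485 at an unadjusted p under 0.05 and 1 called by DESeq2.

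Cxcr4 (ENSMUSG00000045382, chromosome 1, 128588199 to 128592293, minus strand), the receptor of CXCL12, had the highest level of any of the 9 in unstimulated Treg and the widest spread between libraries. It was at 1020, 821 and 297 TPM in unstimulated CD18wt libraries and at 420, 651 and 429 TPM in unstimulated CD18Foxp3 libraries. After stimulation it was at 217, 105 and 99.8 TPM and at 131, 114 and 91.4 TPM. The stimulated libraries lay below the unstimulated ones in both genotypes. Cxcr4 fell by 2.52 (SE 0.22) on the log2 scale in CD18Foxp3 Treg. In CD18wt Treg the log2 fold change was -2.73 (SE 0.57), short of the threshold with all 6 libraries, and -3.08 and past it without the shallow library 3. The genotypes overlapped in both cultures, with log2 fold changes of -0.51 (SE 0.51) and -0.31 (SE 0.27), and without library 3 the first was -0.86. The difference in response between the genotypes was 0.20, and 0.55 without library 3.

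On stimulation 2 of the 9 receptors were called higher and 4 lower in CD18wt Treg, where 33.6% of the 11930 genes tested were called, 18.7% higher and 14.9% lower. In CD18Foxp3 Treg 2 were called higher and 5 lower, where 38.6% of 12019 genes were, 20.9% higher and 17.6% lower. By overlap of TPM, 3 of the 9 were clear of the unstimulated libraries on the higher side and 4 on the lower side in CD18wt Treg, against 47.8% and 14.2% of all genes tested, and 4 and 5 in CD18Foxp3 Treg, against 47.9% and 19.2%. The median log2 fold change of the 9 was -0.78 and -1.07, against 0.024 and 0.015 over all genes tested. Between the genotypes, 4 of the 9 had higher TPM without overlap in unstimulated Treg, where this was so of 8.74% of all genes tested, and 4 in stimulated Treg, where it was so of 5.02%. Ccr7 was lower without overlap in stimulated Treg, as were 4.41% of all genes tested. The rule for the 9 receptors used these contrasts. The comparisons share libraries: each unstimulated and each stimulated group served in a genotype and in a stimulation comparison.

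**Figure D2:**
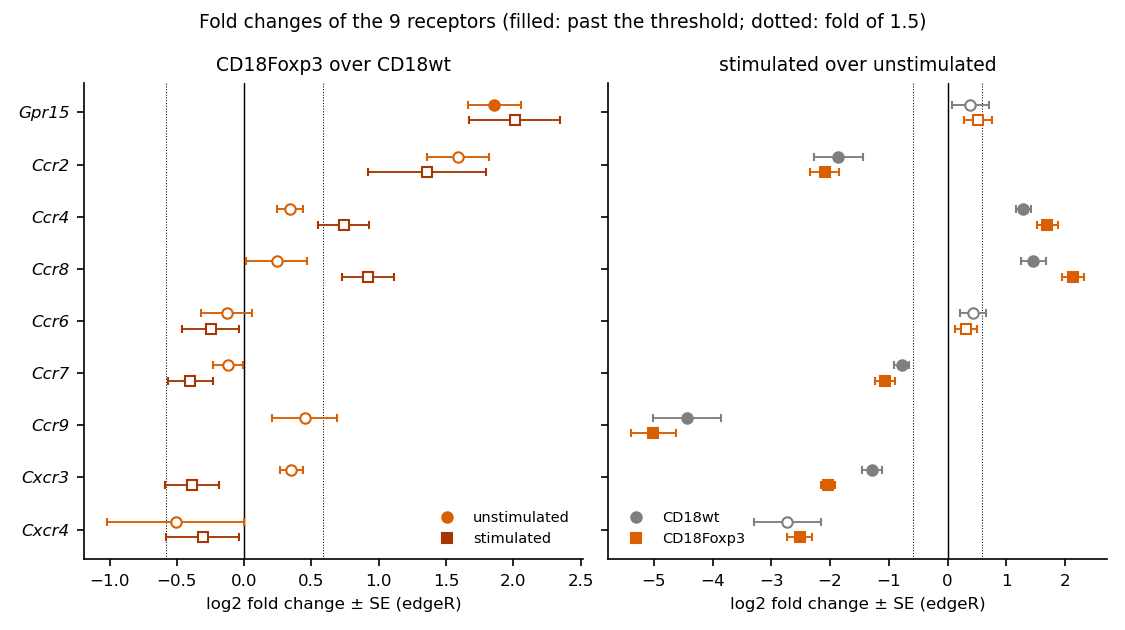
log2 fold change with SE (edgeR, horizontal axis) of each receptor between the genotypes (left) and on stimulation (right), with filled symbols for values past the threshold and dotted lines at a fold of 1.5. Gpr15 in unstimulated Treg, at 1.86, is the only filled symbol on the left, and Ccr9 has no value for stimulated Treg there.

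The order of the levels differed between the cultures. In unstimulated CD18wt Treg the mean TPM ran from Cxcr4 (711) over Ccr7 (337), Cxcr3 (176), Ccr8 (70.6), Ccr4 (34.2), Gpr15 (18.6) and Ccr6 (13.7) to Ccr2 (3.49) and Ccr9 (1.88). The libraries of Cxcr4 and Ccr7 overlapped there, as did those of Gpr15 and Ccr6, and other neighbours in the order did not. In unstimulated CD18Foxp3 Treg Gpr15 (69.1) stood above Ccr4 (43.9) and overlapped Ccr8 (84.7). In stimulated CD18wt Treg Ccr7 (260) and Ccr8 (256) led and overlapped. Cxcr4 (141), Ccr4 (111) and Cxcr3 (94.1) followed, with overlap between Cxcr4 and Ccr4 and between Ccr4 and Cxcr3. In stimulated CD18Foxp3 Treg Ccr8 (480) led without overlap, and Ccr7 (194), Ccr4 (183), Gpr15 (127) and Cxcr4 (112) followed with overlap between neighbours.

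The make-up of the receptor RNA also differed between the groups. Of the summed TPM of 25 receptor genes, these 9 and 16 others, the 9 held 91.6% ± 2.37 in unstimulated CD18wt Treg and 92.1% ± 0.662 in stimulated CD18Foxp3 Treg (SD, n = 3). Cxcr4 went from 55.4%, 49.6% and 30.8% in unstimulated to 19.6%, 11.6% and 10.6% in stimulated CD18wt libraries, and from 33.1%, 42.6% and 33.8% to 9.64%, 10.3% and 6.43% in CD18Foxp3 libraries. Ccr8 went from 4.32%, 5.49% and 4.30% to 23.4%, 27.5% and 27.5% in CD18wt libraries. In CD18Foxp3 libraries it went from 5.78%, 5.72% and 7.37% to 36.9%, 32.9% and 40.5%. Gpr15 held 1.26% ± 0.0251 in unstimulated CD18wt Treg, 5.16% ± 1.44 in unstimulated CD18Foxp3 Treg, 3.19% ± 1.12 in stimulated CD18wt Treg and 9.68% ± 2.33 in stimulated CD18Foxp3 Treg. A share moves with the other receptors in the sum, and with Cxcr4 in particular.

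**Figure D3:**
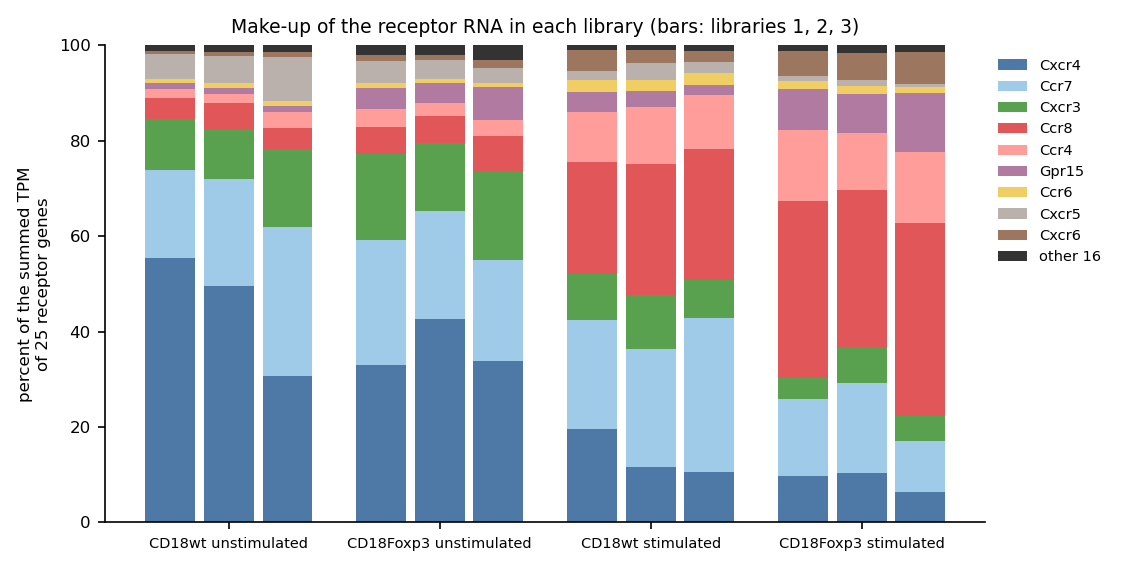
Shares in the summed TPM of 25 receptor genes (vertical axis, percent) in each of the 12 libraries, 3 bars a group. Cxcr4, Ccr7, Cxcr3, Ccr8, Ccr4, Gpr15, Ccr6, Cxcr5 and Cxcr6 are drawn singly. The remaining genes, with Ccr2 and Ccr9 among them, are pooled. Cxcr4 and Ccr7 filled over 50% of the unstimulated bars, and Ccr8 reached 32.9% to 40.5% in the stimulated CD18Foxp3 bars.

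The genes whose levels ran most like Gpr15 over the 12 libraries were Il18rap, Klf10, Gcnt1, Ahr and Arl5a, with Pearson's r of log2 CPM (counts scaled by library) of 0.958, 0.923, 0.908, 0.906 and 0.897 among 12636 genes. The 12 points fall into 4 groups and share their libraries, so that no p is given. Il18rap, a chain of the interleukin-18 receptor, went from 4.88 ± 0.990 TPM in unstimulated CD18wt to 9.26 ± 1.87 TPM in unstimulated CD18Foxp3 Treg (SD, n = 3), and from 6.50 ± 2.56 to 15.7 ± 5.70 TPM in stimulated Treg. Ahr, the aryl hydrocarbon receptor, was at 7.68, 10.2 and 6.35 TPM in unstimulated CD18wt and 11.6, 14.4 and 12.7 TPM in unstimulated CD18Foxp3 libraries, with an adjusted p of 0.14 (edgeR). Of the receptors, Cxcr6 came nearest to Gpr15 (r = 0.757) and Cxcr5 ran most against it (-0.527), while Ccr8 and Ccr4 were at 0.511 and 0.51.

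Among the 16 other chemokine receptors, 7 were tested between the genotypes in each culture and none passed the threshold with edgeR. An unadjusted p under 0.05 was given to 2 of them in unstimulated Treg, where 1134 of the 11829 genes tested had one, and to 4 in stimulated Treg, where 583 of 11930 had one, and DESeq2 called Cxcr5 in the first and Cxcr6 in the second. Cxcr5, which leads into B cell follicles, was at 95.1, 93.2 and 88.5 TPM in unstimulated CD18wt libraries and at 57.0, 59.6 and 38.2 TPM in CD18Foxp3 libraries, a log2 fold change of -0.86 (SE 0.16, adjusted p = 0.0616, edgeR). On stimulation Cxcr5 fell in both genotypes, by 2.32 and 2.48 on the log2 scale, and so did the atypical receptor Ccrl2, by 1.77 and 1.71. In CD18Foxp3 Treg Cxcr6 rose by 1.64 (SE 0.20, adjusted p = 0.000149, edgeR), and Ccr1, from at most 4 reads a library, rose by a fitted 4.50. In CD18wt Treg the log2 fold change of Cxcr6 was 0.91 and missed the threshold. The difference between the genotypes in the response was 0.72 (SE 0.38) for Cxcr6, with an adjusted p of 0.987 (edgeR).

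**Figure D4:**
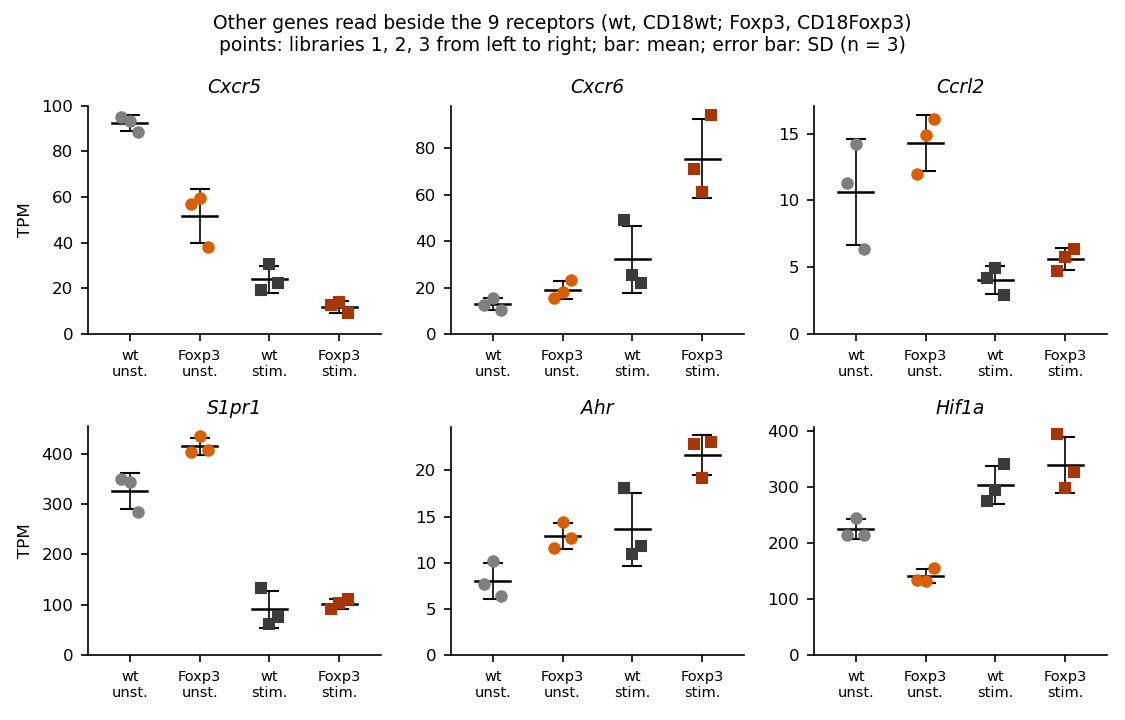
TPM (vertical axis) in each library of 3 chemokine receptors and 3 other genes read beside the 9 receptors, with the mean (bar) and SD (error bar, n = 3). Cxcr5 was lower in unstimulated CD18Foxp3 (38.2 to 59.6 TPM) than in unstimulated CD18wt libraries (88.5 to 95.1 TPM), and Cxcr6 was highest in stimulated CD18Foxp3 libraries.

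Most ligands of the 9 receptors had too few reads to be tested, with 2 to 4 of 16 tested in a comparison. None passed between the genotypes with edgeR or DESeq2, and 0 had an unadjusted p under 0.05. Ccl1, the ligand of CCR8, had 6 to 14 reads in the unstimulated libraries and rose on stimulation to 13.3 ± 6.36 TPM in CD18wt and 10.5 ± 3.84 TPM in CD18Foxp3 Treg (SD, n = 3), by 4.02 (SE 0.52) and 3.70 (SE 0.44) on the log2 scale. Ccl20, the ligand of CCR6, rose in CD18wt Treg by 5.95 (SE 0.56), to 23.9, 14.7 and 34.3 TPM. In stimulated CD18Foxp3 libraries it was at 18.0, 5.44 and 0.412 TPM, and it did not pass the filter on low counts for the test of stimulation there. Cxcl10, a ligand of CXCR3, fell in both genotypes, by 1.17 and 1.99. Ccl25, the ligand of CCR9, rose in CD18Foxp3 Treg by 1.16 (SE 0.28). In CD18wt Treg its log2 fold change was 0.63 (SE 0.40, adjusted p = 0.207, edgeR), and the difference between the genotypes was 0.52 (SE 0.44, adjusted p = 0.987).

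Of 27 genes for signalling, desensitization and tyrosine sulfation, 26 were tested. None passed the threshold between the genotypes in either culture with edgeR or DESeq2. Of the 26, 6 had an unadjusted p under 0.05 (edgeR) in unstimulated Treg, where 1134 of all 11829 genes tested had one. In stimulated Treg 1 of the 26 had one, as did 583 of all 11930 genes tested. On stimulation 12 fell and 2 rose in CD18wt Treg, and 16 fell and 2 rose in CD18Foxp3 Treg, with medians of -0.74 and -0.81. Over all genes tested 14.9% were called lower and 18.7% higher in CD18wt and 17.6% and 20.9% in CD18Foxp3 Treg, with medians of 0.024 and 0.015. The inhibitory G protein subunit Gnai2 fell by 0.88 and 0.97, and the lymphocyte guanine nucleotide exchange factor Dock2 by 1.00 and 1.11. The kinase Grk2, which desensitizes these receptors, fell by 0.63 in CD18Foxp3 Treg, and its log2 fold change of -0.48 in CD18wt Treg (adjusted p = 0.00741, edgeR) was under a fold of 1.5. The arrestins Arrb1 and Arrb2 fell in both genotypes. Rgs16, which ends G protein signals, rose by 1.59 and 1.41, and the sulfotransferase Tpst1 rose by 2.21 and 2.14 while its relative Tpst2 fell by 0.72 and 1.51.

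Of 11 transcription factors known to act on such receptor genes in T cells, 1 passed the threshold between the genotypes in unstimulated Treg. Of all 11829 genes tested there, 0.135% did. In stimulated Treg 0 of the 11 passed, and 0.0% of all 11930 genes. An unadjusted p under 0.05 (edgeR) was given to 3 of the 11 in unstimulated Treg, and to 1134 of all genes. In stimulated Treg it was given to 4 of the 11 and to 583 of all genes. DESeq2 called 1 of the 11, Hif1a, in unstimulated and 0 in stimulated Treg. Hif1a, the oxygen-regulated factor, was at 215, 245 and 214 TPM in unstimulated CD18wt and at 134, 133 and 156 TPM in unstimulated CD18Foxp3 libraries, and had a log2 fold change of -0.69 (SE 0.088, adjusted p = 0.0064, edgeR). On stimulation Klf2, a factor of Ccr7 and S1pr1 expression, fell by 2.99 and 3.18, and Foxo1 and Tcf7 fell in both genotypes. Irf4, a factor of effector Treg, rose by 3.67 and 3.94, and Tbx21, the T-bet gene linked to Cxcr3, rose by 2.01 and 1.96 while Cxcr3 fell.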

How the data were processed

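Splenic RFP+CD4+ T cells of CD18wt and CD18Foxp3 mice were sequenced in 12 libraries, 3 per group, as 59-base single reads after 15 PCR cycles. Groups and replicates follow the labels, which do not say whether libraries of a number come from 1 animal, so that p-values measure the spread between these libraries. The authors mapped the reads to GRCm38 in CLC Genomics Workbench and deposited, per gene, total and uniquely placed exon counts and TPM. TPM was deposited with decimal commas and equals the exon count per exon length, scaled to the library. Exon lengths are those of the deposited tables. Depth limits low genes most, and the error of a count covers counting only.

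Exon counts were analysed in edgeR 4.0.16 (R 4.3.3). Genes were kept by filterByExpr (minimum count 10), scaled by TMM and tested by the robust quasi-likelihood test with Benjamini-Hochberg adjustment, on the 6 libraries of a comparison or all 12 for the interaction. The threshold was a 1.5-fold difference at an adjusted p of 0.01. The SE was the size of the log2 fold change divided by the square root of F. Alternatives were an adjusted p of 0.05, DESeq2 1.42.0, upper-quartile scaling, no filter, at least 10 reads in every library, counts of uniquely placed reads alone, limma 3.58.1 with log2(TPM + 1) or log2(TPM + 0.1), a replicate block, 1 fit of 12 libraries, and each library left out in turn. The scripts were tested on simulated data. The 9 receptors, the gene lists, the motifs and the marker lists were chosen with earlier results of these data known. Named genes were the 9 receptors, members of the fixed lists, and the 5 genes with the highest Pearson correlation with Gpr15 in TMM-normalized log2 CPM (prior count 2). 1 gene in the list of 16 other chemokine receptors was counted with the list and is not reported here. The ligand of GPR15 had no row under its current name. Figures were drawn with matplotlib 3.10.9. Intron counts were used for the intron shares, and the deposited RPKM was not used.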

Additional observations from a re-analysis of the deposited data

How the results depend on the processing

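Between the genotypes in unstimulated Treg, 16 genes were past the threshold, and the count moved to 33 at an adjusted p of 0.05, 86 with DESeq2, 134 without a filter, 1 and 5 with limma on log2(TPM + 1) and log2(TPM + 0.1), and 0 with all 12 libraries in 1 fit. Gpr15 was among them under the first 3, with Ccr2 as the second receptor (2 of 9 receptors), and 0 receptors were under the limma fits and the fit of 12 libraries. Leaving out a library gave 0 to 44 genes and 0 to 1 receptors, 44 without the unstimulated CD18wt library 3. Between the genotypes in stimulated Treg, 0 genes became 22 with DESeq2 (2 receptors, Gpr15 and Ccr8), 61 without a filter (3 receptors, Gpr15, Ccr4 and Ccr8) and 1 with limma on log2(TPM + 0.1), and 0 to 2 with a library left out, which gave 0 receptors. For the interaction 0 genes became 1 with DESeq2, 31 without a filter and 1 with either limma fit. Stimulation gave 3251 to 3843 genes and 5 to 7 receptors in CD18wt Treg, and 3591 to 4889 genes and 7 receptors in CD18Foxp3 Treg, with a library left out. The causes were not tested, other than that fewer genes or libraries enter some fits.

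With the replicate number as a block, 41 genes passed between the genotypes in unstimulated Treg, with Ccr2 past the threshold and Gpr15 (1.86) not, 1 gene in stimulated Treg, 3588 and 4899 genes on stimulation with 7 receptors each, and 0 in the interaction. Deviations of same-numbered libraries correlated from -0.0945 to 0.0958 (stimulation, CD18wt), 0.0696 to 0.147 (stimulation, CD18Foxp3), -0.00509 to 0.0847 (genotype, unstimulated) and -0.132 to -0.0575 (genotype, stimulated), so that the numbers did not pair the libraries in every case.

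Of 428 values of single receptors under other settings, 403 kept direction and side of the threshold, 8 lost the call, 17 gained it and 0 turned. With a library left out, 11 of 318 turned. Between the genotypes Ccr7 ranged from -0.20 to 0.00 in unstimulated and Cxcr4 from -0.52 to 0.12 in stimulated Treg. In the interaction Gpr15 ranged from -0.17 to 0.47, Cxcr4 from -0.14 to 0.62, Ccr6 from -0.29 to 0.01, Ccr2 from -0.61 to 0.18 and Ccr9 from -1.07 to 0.45. Depth limits Ccr9 and Ccr2 in stimulated Treg most.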

Other observations

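Of 14 other G protein-coupled receptors of lymphocyte migration, 8 were tested. None passed the threshold between the genotypes in either culture with edgeR or DESeq2. An unadjusted p under 0.05 (edgeR) was given to 3 of the 8 in unstimulated Treg, where 1134 of all 11829 genes tested had one. In stimulated Treg 2 of the 8 had one, as did 583 of all 11930 genes tested. On stimulation 6 passed the threshold as lower in CD18wt Treg, where 14.9% of all genes tested did, and 2 in CD18Foxp3 Treg, where 17.6% did. Log2 fold changes were below 0 in 6 and 7 of the 8, and the difference in response between the genotypes had an adjusted p of 0.987 (edgeR) for each of the 8. The medians on stimulation were -1.04 and -0.54 against 0.024 and 0.015 over all genes. S1pr1, the sphingosine-1-phosphate receptor that lets T cells leave lymphoid organs, was at 350, 343 and 284 TPM in unstimulated and 133, 62.5 and 76.3 TPM in stimulated CD18wt libraries, and fell by 2.26 (SE 0.23) on the log2 scale. In CD18Foxp3 libraries it was at 403, 435 and 407 TPM and then at 91.2, 104 and 111 TPM, and fell by 2.39 (SE 0.11). S1pr4 fell by 1.32 and 1.97. On counts Gpr183, the oxysterol receptor of follicle borders, fell by 0.65 (SE 0.17) in CD18wt Treg. In CD18Foxp3 Treg its log2 fold change was -0.3 (SE 0.23) and did not pass the threshold. In TPM the libraries of Gpr183 overlapped in both genotypes, with ratios of the means of 0.85 in CD18wt and 1.04 in CD18Foxp3 Treg. It was at 94.8, 106 and 79.7 TPM before and 131, 68.9 and 92.8 TPM after stimulation in CD18Foxp3 Treg. The difference in its response between the genotypes was 0.34 (SE 0.31, adjusted p = 0.987, edgeR), so that the genotypes were not shown to differ.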
